A study of Rattus norvegicus with 8 samples.

Results

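The core circadian clock genes were followed in whole blood of hypertensive rats before and after Chios mastic gum (CMG), the resin of Pistacia lentiscus var. Chia. The 10 genes, chosen by name as the established transcription factors, repressors and output of the clock, were Clock, Arntl (Bmal1), Per1, Per2, Per3, Cry1, Cry2, Nr1d1, Nr1d2 and Dbp, and all 10 had a row among the 17446 genes counted. The rats were male, wild type Wistar animals of 12 to 14 weeks, made hypertensive in 1 of 2 ways. In the AngII model, angiotensin II (AngII), the effector peptide of the renin–angiotensin system, was infused by subcutaneous minipumps at 0.4 mg/kg/day. In the DOCA–HS model, deoxycorticosterone acetate (DOCA), a mineralocorticoid, was injected at 100 mg/kg once a week, with 0.9% NaCl and 1% KCl in the drinking water. Blood was taken once hypertension was established, at week 1 of AngII and week 3 of DOCA–HS, and again after 4 weeks of CMG by gavage at 220 mg/kg per day, at weeks 5 and 7. Each of the 4 groups had 2 RNA-seq libraries. Rats given saline in place of CMG were not analysed here, so a difference between after and before also holds 4 further weeks of the model. The hour at which blood was taken is not given in the sources used here.

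The circadian clock is a feedback loop of transcription that runs in nearly every cell of the body and takes about a day to complete. CLOCK and BMAL1 (the product of Arntl) bind E-box elements as a dimer and activate the Per and Cry genes, whose proteins return to the nucleus and repress the dimer, as well as Nr1d1, Nr1d2 and Dbp. Nr1d1 and Nr1d2 encode the nuclear receptors REV-ERBα and REV-ERBβ, which repress Arntl, and DBP activates further targets through D-box elements. In blood, leukocytes carry this loop, and the level of its transcripts depends on the hour and, for Per1, on glucocorticoids.

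Letter matches to elements of this kind are shown here in the RefSeq start regions of 4 of the genes, chosen because each holds one, as a description of sequence and not of working sites. The regions run from 250 bases before to 50 after an annotated start on GRCr8, and 11 of them belonged to 9 of the 10 genes. Capitals mark a match on either strand to the E-box CACGTG, the E'-box CACGTT, the D-box TTATGNAA or the REV-ERB and ROR element TAGGTNA. Arntl, listed by RefSeq as Bmal1 (chr1:176766078-176766377, plus strand), held the last of these at 52 and at 16 bases before its start.
Bmal1: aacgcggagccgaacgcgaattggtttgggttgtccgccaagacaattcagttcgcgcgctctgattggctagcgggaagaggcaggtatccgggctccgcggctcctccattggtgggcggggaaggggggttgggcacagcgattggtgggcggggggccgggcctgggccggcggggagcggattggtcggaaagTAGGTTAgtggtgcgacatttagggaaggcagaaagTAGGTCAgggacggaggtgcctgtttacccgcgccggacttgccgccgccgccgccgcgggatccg
Per2 (chr9:99496944-99497243, minus strand) held a D-box at 192 and an E'-box at 62 bases before its start.
Per2: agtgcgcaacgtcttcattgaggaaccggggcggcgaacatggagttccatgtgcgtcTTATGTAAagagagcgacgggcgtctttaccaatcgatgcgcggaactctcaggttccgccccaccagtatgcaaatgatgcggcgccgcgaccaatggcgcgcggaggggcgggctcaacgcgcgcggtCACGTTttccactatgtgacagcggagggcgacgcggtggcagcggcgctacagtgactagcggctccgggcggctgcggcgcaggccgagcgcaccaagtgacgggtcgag
Cry2 (chr3:98860388-98860687, minus strand) held an E'-box, read on the opposite strand, at 212 bases before its start.
Cry2: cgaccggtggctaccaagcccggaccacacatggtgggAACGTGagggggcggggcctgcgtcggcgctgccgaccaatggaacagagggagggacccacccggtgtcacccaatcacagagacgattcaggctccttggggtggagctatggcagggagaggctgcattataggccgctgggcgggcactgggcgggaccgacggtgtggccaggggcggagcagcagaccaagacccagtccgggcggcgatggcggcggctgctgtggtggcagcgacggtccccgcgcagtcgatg
Nr1d1 at the second of its annotated starts (chr10:84229405-84229704, minus strand) held an E-box at 191 bases before the start.
Nr1d1: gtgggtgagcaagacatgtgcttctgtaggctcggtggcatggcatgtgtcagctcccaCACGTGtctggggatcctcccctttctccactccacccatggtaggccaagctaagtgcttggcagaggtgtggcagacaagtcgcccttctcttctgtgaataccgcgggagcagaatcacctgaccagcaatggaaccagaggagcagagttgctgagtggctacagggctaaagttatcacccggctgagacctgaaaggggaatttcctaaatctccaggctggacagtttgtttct
Its other region held an E'-box on the opposite strand, at 174 bases before the start. The regions of Clock, Per1, Per3, Nr1d2 and Dbp held no match to these letters, which says nothing of elements written otherwise or lying elsewhere. Of all 33469 such regions of the rat, 6.42% held the E-box, 4.83% the E'-box, 3.66% the D-box and 8.7% the REV-ERB and ROR element.

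The libraries held 4149104 to 13205565 counts, of which 61.9 to 84.3% fell on 2 hemoglobin genes. The 10 clock genes had 173 to 564 counts together in 7 libraries and 24 in the DOCA–HS library after CMG, replicate 2, which also had the lowest total and the highest hemoglobin share. Markers of neutrophils, monocytes, T cells, B cells, cytotoxic lymphocytes, erythroid cells and platelets were present in all 8 libraries, although the platelet gene Gp1bb was at 0 throughout and the neutrophil gene Ltf in 7. The labels give cardiac puncture, and of the 8 heart muscle markers Tnnt2 and Tnni3 had 1 count each, in different libraries, while the rest were at 0. In bulk blood, fewer cells of a type and less RNA per cell cannot be told apart. Nothing in the labels ties the 2 libraries of a group to separate rats, so the p-values measure only the spread between these libraries, which may be technical.

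**Figure D1:**
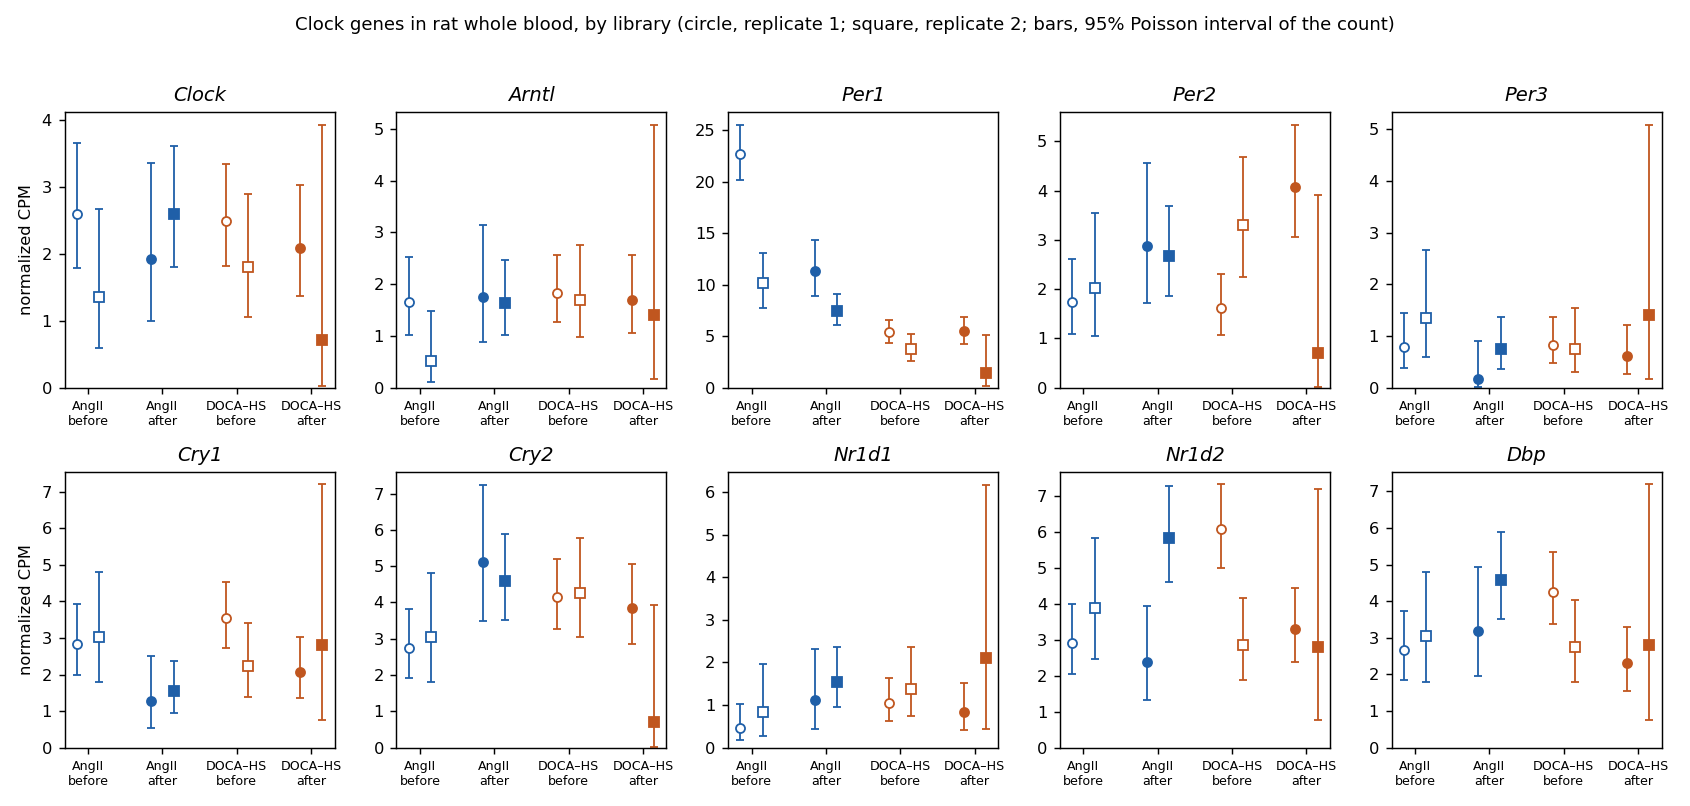
Normalized CPM (counts scaled by library size times a TMM normalization factor) of the 10 clock genes in each of the 8 libraries, with the model and time on the horizontal axis. The factor ran from 0.343 in the DOCA–HS library after CMG, replicate 2, to 1.88 in the DOCA–HS library before CMG, replicate 1. Blue is AngII, orange DOCA–HS, open before and filled after CMG, and the bars are 95% Poisson intervals that cover counting error only. Per1 was highest in the AngII library before CMG, replicate 1, at 22.7 CPM, and the points of the DOCA–HS library after CMG, replicate 2, rest on 1 to 4 counts a gene.

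In AngII rats, none of the clock genes passed the criterion of the study, a log2 fold change beyond 1.5 with an unadjusted p of at most 0.05, after against before CMG. Cry1 was lower and Cry2 higher after CMG in both libraries, each with an unadjusted p below 0.05 that did not hold after adjustment. Of the 8 clock genes with enough counts to be tested, 0 passed the criterion, against 1.24% of all 7201 genes tested by edgeR's quasi-likelihood test, and 2 had an unadjusted p of at most 0.05, against 6.65%. DESeq2 also called 0. In 4 of the 8 the libraries after CMG did not overlap those before, Per2, Cry2 and Dbp being higher and Cry1 lower, against 39.9% of all genes. The median log2 fold change of the 8 was 0.44, beside -0.01 over all genes tested.

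In DOCA–HS rats, none of the clock genes passed the criterion either. Of 9 genes tested, 0 passed it, against 2.05% of all 7720 genes, 0 had an unadjusted p of at most 0.05, against 3.17%, and DESeq2 called 0. In 2 of the 9, Arntl and Cry2, both libraries after CMG lay below both before, and none lay above, against 35.8% of all genes without overlap in either direction. The median log2 fold change was -0.29, beside -0.04 over all genes, and the adjusted p was 0.997 for all 9. The intervals reached beyond 1.5 in at least 1 direction for 7 of the 9.

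The cryptochromes CRY1 and CRY2 are the repressors that hold the CLOCK and BMAL1 dimer inactive. Cry1 stood at 2.83 and 3.04 CPM in the AngII libraries before CMG and at 1.28 and 1.55 CPM after it (36, 18, 8 and 21 counts). Both libraries after CMG were lower, with a log2 fold change of -1.0 (SE 0.39, 95% interval -1.90 to -0.09, adjusted p = 0.709 by edgeR). The DOCA–HS libraries held Cry1 at 3.55 and 2.23 CPM before and 2.08 and 2.81 CPM after CMG, with 4 counts behind the last value. These libraries overlapped, and the log2 fold change was -0.38 (95% interval -1.59 to 0.82).

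Cry2, whose start region with an E'-box is given above, went the other way in AngII rats. It stood at 2.75 and 3.04 CPM before and at 5.12 and 4.59 CPM after CMG (35, 18, 32 and 62 counts), so that both libraries after CMG were higher. The log2 fold change was 0.76 (SE 0.32, 95% interval 0.03 to 1.49, adjusted p = 0.733 by edgeR). DESeq2 gave an unadjusted p above 0.05 for both genes in the same libraries. Cry2 in DOCA–HS rats was 4.15 and 4.25 CPM before CMG and 3.84 and 0.703 CPM after it. Both were lower, but the last value rests on 1 count, whose 95% Poisson interval runs from 0.0178 to 3.92 CPM, and the log2 fold change was -0.48 (95% interval -1.76 to 0.80).

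The share of Cry2 in the counts of Cry1 and Cry2 does not depend on how the libraries are scaled to each other. This share, chosen after the values were seen, was 49.3% (95% exact binomial interval 37.2 to 61.4) and 50% (32.9 to 67.1) in the AngII libraries before CMG. After CMG it was 80% (64.4 to 90.9) and 74.7% (64.0 to 83.6). The AngII libraries did not overlap between the times, and with 2 libraries against 2 the smallest p of a two-sided exact permutation test is 0.333. For DOCA–HS rats the Cry2 share was 54.0% and 65.6% before and 64.9% and 20% after CMG, the last with an interval of 0.505 to 71.6, and the groups overlapped. Beside the AngII values, the summed cytotoxic lymphocyte markers stood at 38.6 and 39.5 CPM before and 84.0 and 76.0 CPM after CMG, those of T cells at 194 and 219 CPM before and 122 and 164 CPM after. The monocyte markers stood at 417 and 405 CPM before and 516 and 515 CPM after CMG. The part of these in the Cry1 and Cry2 values was not tested.

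**Figure D2:**
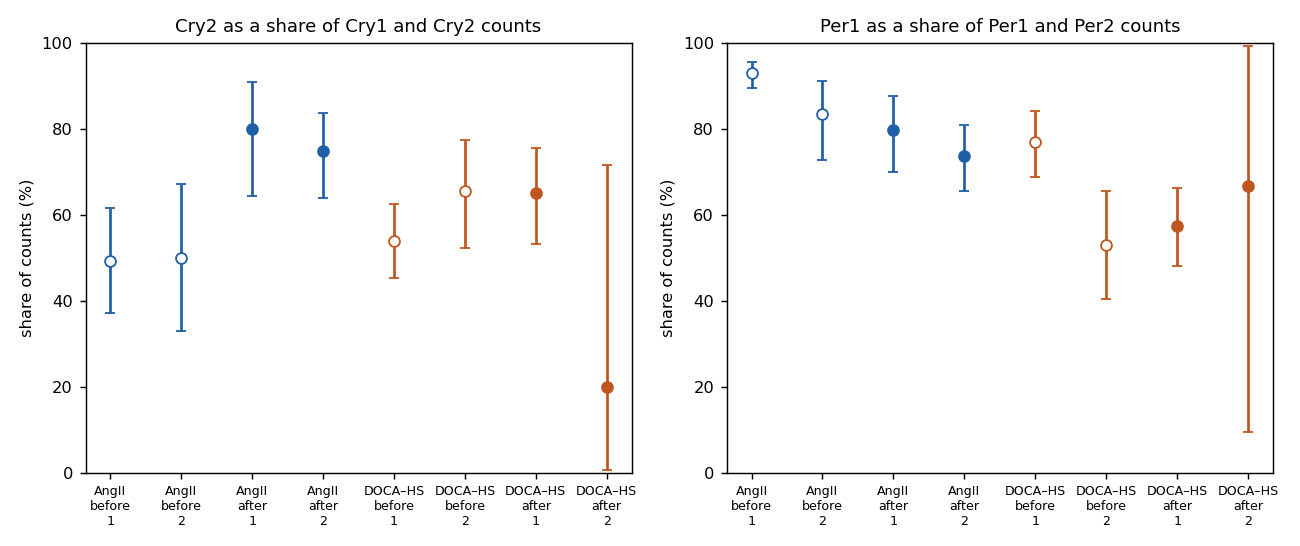
Share of Cry2 in the summed counts of Cry1 and Cry2 (left) and of Per1 in those of Per1 and Per2 (right), in percent, in each of the 8 libraries named on the horizontal axis. Open points are before and filled points after CMG, and the bars are 95% exact binomial intervals for counting error only. The Cry2 share is near 50% in both AngII libraries before CMG and 74.7% or more in both after it.

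The PER proteins bind the cryptochromes and carry them to the nucleus, and Per1 is also an immediate target of glucocorticoid and cAMP signals. In AngII rats Per1 stood at 22.7 and 10.1 CPM before and 11.4 and 7.47 CPM after CMG (289, 60, 71 and 101 counts). The library before CMG, replicate 1, stood above the other three, and the groups overlapped. The log2 fold change was -0.82 (SE 0.44, 95% interval -1.84 to 0.20, adjusted p = 0.773), and without the AngII library before CMG, replicate 1, it was -0.10. In a fit without the filter on low counts, the log2 fold change was -0.84 with an unadjusted p of at most 0.05 (adjusted p = 0.525 by edgeR). The share of all genes at that unadjusted p was not computed for that fit. The unadjusted p was also at most 0.05 with the replicate number as a block (-0.71). It was above 0.05 with DESeq2 size factors (-0.85), total counts (-0.54), counts outside hemoglobin (-0.50) and DESeq2 (-0.84).

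Per1 in DOCA–HS rats was 5.37 and 3.72 CPM before and 5.46 and 1.41 CPM after CMG, the last from 2 counts. The libraries overlapped, with a log2 fold change of -0.12 (95% interval -1.40 to 1.16).

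Per2, with both an E'-box and a D-box in the region shown, was 1.73 and 2.03 CPM before and 2.88 and 2.66 CPM after CMG in AngII rats. Both libraries after CMG were higher by a small margin, at 18 and 36 counts against 22 and 12, and the log2 fold change was 0.59 (SE 0.38, 95% interval -0.28 to 1.45, adjusted p = 0.788). The DOCA–HS values ran from 1.61 and 3.29 CPM before to 4.07 and 0.703 CPM after CMG. The libraries after CMG were at the same time the highest and the lowest of the 4, and the log2 fold change was 0.42 (95% interval -1.03 to 1.87). Per3, the least essential of the PER genes for the rhythm, had 1 to 15 counts a library and was too low to be tested in either model. Its levels were 0.786 and 1.35 CPM before and 0.160 and 0.740 CPM after CMG in AngII rats, and 0.831 and 0.744 CPM before and 0.615 and 1.41 CPM after in DOCA–HS rats.

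The 3 PER genes together took 61.4 and 46.2% of the counts of the 10 clock genes in AngII rats before CMG and 46.2 and 32.7% after it. The share in DOCA–HS rats was 25 and 31.3% before and 38.6 and 20.8% after CMG. The last value rests on 5 of 24 counts, with an exact binomial interval of 7.13 to 42.2%. Before CMG both AngII libraries were thus above both DOCA–HS libraries, and after it the models overlapped. Per1 made up 92.9, 83.3, 79.8 and 73.7% of the Per1 and Per2 counts in the AngII libraries in that order. In the DOCA–HS libraries it made up 77.0, 53.0, 57.3 and 66.7%. The 66.7% rests on 2 of 3 counts, with an exact binomial interval of 9.43 to 99.2%.

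Clock and Arntl encode the activating dimer. Clock was 2.59 and 1.35 CPM before and 1.92 and 2.59 CPM after CMG in AngII rats, and 2.49 and 1.81 CPM before and 2.08 and 0.703 CPM after in DOCA–HS rats. The groups overlapped in both models, with log2 fold changes of 0.16 (95% interval -0.88 to 1.20) and -0.29 (-1.62 to 1.04). Arntl was 1.65 and 0.507 CPM before and 1.76 and 1.63 CPM after CMG in AngII rats, where the low value came from 3 counts. Its log2 fold change there was 0.51 (95% interval -0.88 to 1.90, adjusted p = 0.854), and -0.01 without that library. Arntl in DOCA–HS rats was 1.83 and 1.70 CPM before and 1.69 and 1.41 CPM after CMG, the last from 2 counts, and both libraries after CMG were lower by a small margin, with a log2 fold change of -0.12 (95% interval -1.40 to 1.16).

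Nr1d1 and Nr1d2 encode the REV-ERB receptors that repress Arntl. Nr1d1 had 3 to 21 counts a library and was too low to be tested in AngII rats, where it stood at 0.472 and 0.845 CPM before and 1.12 and 1.55 CPM after CMG. Both libraries after CMG were higher, and a fit without the filter on low counts gave a log2 fold change of 1.13 (SE 0.69), with an unadjusted p above 0.05. Nr1d1 in DOCA–HS rats was 1.05 and 1.38 CPM before and 0.846 and 2.11 CPM after CMG, overlapping, with a log2 fold change of -0.15 (95% interval -1.79 to 1.48). Nr1d1 overlaps Thra on the opposite strand. The counting is stated to use strand, but the labels name another library kit than the directional one of the methods, and whether Thra reads entered the Nr1d1 counts was not tested.

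Nr1d2 varied widely within groups, at 2.91 and 3.89 CPM before and 2.40 and 5.84 CPM after CMG in AngII rats. It was 6.09 and 2.87 CPM before and 3.31 and 2.81 CPM after CMG in DOCA–HS rats. The groups overlapped in both models, and the log2 fold changes were 0.38 (95% interval -0.64 to 1.40) and -0.52 (-1.75 to 0.71).

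Dbp, an output of the loop with a large daily swing in most tissues, was 2.67 and 3.04 CPM before and 3.20 and 4.59 CPM after CMG in AngII rats. Both libraries after CMG were higher, the nearer by a margin smaller than its counting error, and the log2 fold change was 0.50 (SE 0.35, 95% interval -0.30 to 1.3, adjusted p = 0.801). Dbp in DOCA–HS rats was 4.27 and 2.76 CPM before and 2.31 and 2.81 CPM after CMG. These overlapped, with a log2 fold change of -0.55 (95% interval -1.71 to 0.61).

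**Figure D3:**
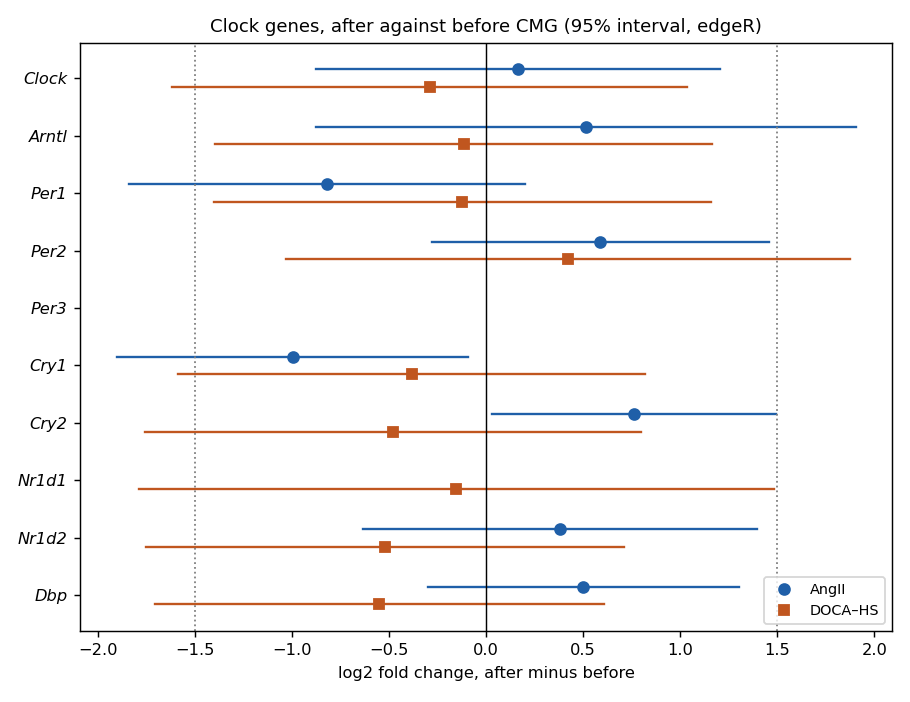
Log2 fold change after against before CMG (horizontal axis) of each clock gene (vertical axis), in AngII (blue circles) and DOCA–HS (orange squares), with 95% intervals from edgeR and dotted lines at the criterion of 1.5. The interval leaves out 0 for Cry1 and Cry2 in AngII rats and for no gene in DOCA–HS rats; genes without a symbol were too low to be tested.

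The change after CMG was then compared between the models in a fit over all 8 libraries, in which 9 of the clock genes were tested. None of the 9 passed the criterion for the difference, against 3.16% of all 7994 genes, and 0 had an unadjusted p of at most 0.05, against 3.74%. Cry2 came nearest, at a difference of -1.20 (DOCA–HS minus AngII, SE 0.65, 95% interval -2.63 to 0.22, adjusted p = 0.881). Dbp followed at -1.04 (95% interval -2.35 to 0.28). Averaged over both models, 0 of the 9 passed the criterion, against 0.325%, and Cry1 alone had an unadjusted p of at most 0.05, against 3.9% of all genes. Its average log2 fold change was -0.71 (SE 0.31, 95% interval -1.39 to -0.03, adjusted p = 1.00), and 3 of the 4 libraries after CMG lay below both libraries before CMG of their own model.

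Between the models, Per1 was the clock gene that stood apart. Before CMG it was lower in DOCA–HS rats, at 4.55 ± 1.17 CPM (SD, n = 2), than in AngII rats, at 16.4 ± 8.90 CPM (SD, n = 2). The log2 fold change of -1.85 (SE 0.53, 95% interval -3.02 to -0.69) passed the criterion, while the adjusted p was 0.992. Of the 9 genes tested 1 passed the criterion, against 0.838% of all genes, and the same 1 had an unadjusted p of at most 0.05, against 3.38%. Both DOCA–HS libraries, at 5.37 and 3.72 CPM, were below both AngII libraries, at 22.7 and 10.1 CPM, and 4 of the 9 genes did not overlap between the models, against 45.4% of all genes. The others of these were Arntl, Cry2 and Nr1d1, all higher in DOCA–HS rats, at log2 fold changes of 0.57, 0.54 and 0.95 and with an adjusted p of 0.992 each.

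The size of the Per1 difference rested on single libraries. Without the AngII library before CMG, replicate 1, the log2 fold change was -1.15, and without the DOCA–HS library before CMG, replicate 2, it was -1.68, and in neither did Per1 pass the criterion. With the libraries scaled to their total counts in place of TMM it was -1.05 and did not pass, although the median of all genes then stood at 0.86. The erythroid markers other than hemoglobin summed to 21325 and 27515 CPM in the AngII libraries and to 10687 and 14772 CPM in the DOCA–HS libraries before CMG, those of B cells to 52.3 and 79.2 CPM against 121 and 88.0 CPM, and those of monocytes to 417 and 405 CPM against 439 and 690 CPM. Lyz2, the largest member of the monocyte sum, overlapped, at 355 and 373 CPM against 359 and 628 CPM. Of the single markers tested, 1 of 7 for monocytes, 4 of 7 for B cells and 8 of 9 for erythroid cells, hemoglobin included, did not overlap. Of all genes, 45.4% did not. The part of these markers in the Per1 difference was not tested. The model and the number of weeks in it, 1 against 3, cannot be told apart.

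After CMG the order was kept, with Per1 at 9.41 ± 2.75 CPM (SD, n = 2) in AngII and 3.43 ± 2.87 CPM (SD, n = 2) in DOCA–HS rats. The libraries did not overlap, but the log2 fold change of -1.14 (95% interval -2.39 to 0.10, adjusted p = 1.00) did not pass the criterion. It was -2.74 without the DOCA–HS library after CMG, replicate 1, where the median of all genes was -0.38, and -0.77 without replicate 2. With all 8 libraries, none of the 9 genes passed the criterion, against 1.4% of all genes, and 0 had an unadjusted p of at most 0.05, against 2.79%. In 4 of the 9 the models did not overlap after CMG, against 26.6% of all genes, Per1, Cry2 and Dbp being lower and Cry1 higher in DOCA–HS rats. Cry2 stood at a log2 fold change of -0.66 (95% interval -1.70 to 0.38), Dbp at -0.71 (-1.69 to 0.28) and Cry1 at 0.63 (-0.44 to 1.70).

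**Figure D4:**
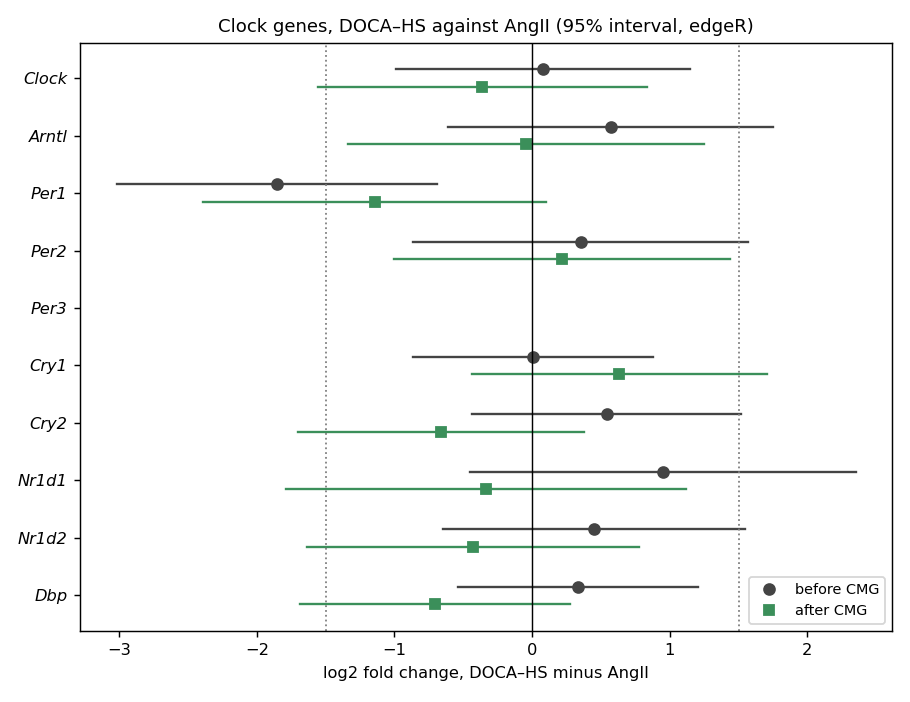
Log2 fold change of DOCA–HS against AngII (horizontal axis) of each clock gene (vertical axis), before (dark circles) and after CMG (green squares), with 95% intervals from the edgeR fit over 8 libraries and dotted lines at the criterion of 1.5. Per1 lies below 0 at both times, at -1.85 and -1.14, and its interval leaves out 0 before CMG only; Per3 was too low to be tested.

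Further genes of the clock were counted as lists. Of 8 other clock transcription factors analysed, Npas2, Arntl2, Rorb, Tef, Nfil3, Bhlhe40, Ciart and Cipc, 3 could be tested in AngII and 4 in DOCA–HS rats, and 0 passed the criterion (1.24 and 2.05% of all genes) or had an unadjusted p of at most 0.05 (6.65 and 3.17%) after CMG in either model. Npas2, the paralog of Clock, had 2 counts over all 8 libraries, and Arntl2, the paralog of Arntl, had 0. In AngII rats the smallest p-values were those of Nfil3, the D-box repressor that opposes DBP, at a log2 fold change of -0.63 (95% interval -1.43 to 0.17), and of Cipc, an inhibitor of CLOCK, at 0.86 (-0.27 to 2.00). In DOCA–HS rats they were those of Cipc at -1.02 (95% interval -2.20 to 0.16) and Tef, a PAR bZIP factor like DBP, at -0.66 (-2.30 to 0.97).

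Cipc was 1.41 and 3.04 CPM before and 2.40 and 4.88 CPM after CMG in AngII rats, and 4.32 and 2.97 CPM before and 1.92 and 1.41 CPM after in DOCA–HS rats. The AngII libraries overlapped and both DOCA–HS libraries after CMG were lower, the last value from 2 counts. The change differed between the models by -1.86 (SE 0.75, adjusted p = 0.881), which passed the criterion, as did 3.16% of all genes. The call was lost with total counts (-3.01), with DESeq2 (-1.80) and without the AngII library before CMG, replicate 1 (-1.32), the AngII library after CMG, replicate 2 (-1.21), the DOCA–HS library before CMG, replicate 1 (-1.58), or that after CMG, replicate 1 (-2.24), and Cipc was not tested under a filter of 10 counts in each library.

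Of the 13 kinases, ubiquitin ligases and partners of the clock proteins, 10 were tested in AngII and 11 in DOCA–HS rats, and 0 passed the criterion in either, against 1.24 and 2.05% of all genes. In AngII rats none had an unadjusted p of at most 0.05, the smallest being those of the PER kinase gene Csnk1e, at -0.58 (95% interval -1.36 to 0.21), and of Wee1, a cell cycle kinase gene driven by the clock, at 0.85 (-0.47 to 2.18). In DOCA–HS rats Gsk3b, a kinase that acts on several clock proteins, had a log2 fold change of 1.28 (SE 0.53, 95% interval 0.06 to 2.50, adjusted p = 0.997), the only one of the 11 with an unadjusted p of at most 0.05 (3.17% of all genes), and Nampt, the NAD salvage enzyme under clock control, of 0.79 (-0.25 to 1.83). Gsk3b stood at 3.21 and 2.87 CPM before and 5.15 and 11.3 CPM after CMG in DOCA–HS rats, the last from 16 counts, and at 4.48 and 3.89 CPM before and 4.32 and 2.22 CPM after in AngII rats. Both DOCA–HS libraries after CMG were higher, the AngII libraries overlapped, and the difference of the change was 1.66 (SE 0.67, adjusted p = 0.881), which passed the criterion. The call was lost with total counts (0.36), counts outside hemoglobin (0.84) and a filter of 10 counts in each library (1.15), and it held in 3 of 8 fits that left out a library. Those that lost it left out the AngII library before CMG, replicate 1 (1.54), or after CMG, replicate 2 (1.19), or the DOCA–HS library before CMG, replicate 1 (1.71) or 2 (1.63), or after CMG, replicate 2 (1.19).

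**Figure D5:**
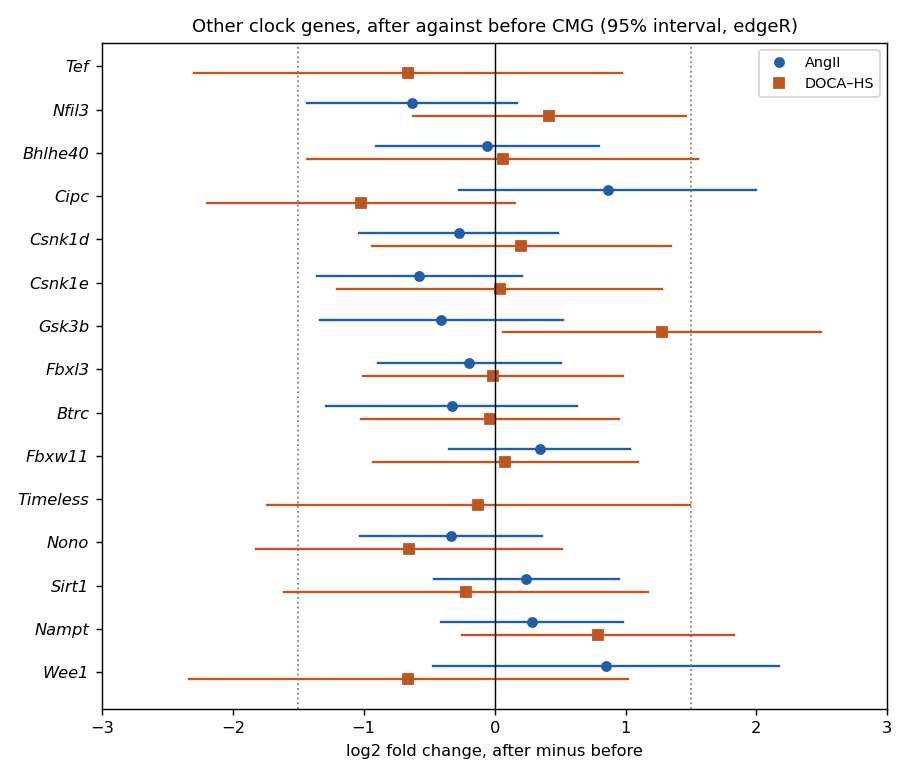
Log2 fold change after against before CMG (horizontal axis) of the other clock transcription factors and of the clock kinases, ligases and partners that could be tested (vertical axis), in AngII (blue circles) and DOCA–HS (orange squares), with 95% intervals from edgeR and dotted lines at the criterion of 1.5. The interval leaves out 0 only for Gsk3b in DOCA–HS rats, at 1.28.

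Because Per1 is also induced by glucocorticoids, 8 glucocorticoid-induced genes, Tsc22d3, Fkbp5, Zbtb16, Klf9, Sgk1, Dusp1, Ddit4 and Cd163, were set beside it. Of 6 tested in each model, 1 passed the criterion in AngII rats after CMG, against 1.24% of all genes, and 0 did in DOCA–HS rats, against 2.05%, where 0 had an unadjusted p of at most 0.05. It was Klf9, a transcription factor gene that also follows the hour, which fell from 11.2 and 4.56 CPM to 2.56 and 3.03 CPM (log2 fold change -1.51, SE 0.45, adjusted p = 0.628). Without the AngII library before CMG, replicate 1, the highest for Klf9 as for Per1, its log2 fold change was -0.68, and without the library after CMG, replicate 1, it was -1.47, neither past the criterion. With the replicate number as a block the log2 fold change of Klf9 was -1.33, not past 1.5 but with an adjusted p of 0.0061 by edgeR. With no filter it was -1.54 (adjusted p = 0.0145). An adjusted p under 0.05 was shared by 165 of all 7201 genes in the block fit and 51 of all 11196 without a filter, against 0 in the main fit. The call was lost with total counts (-1.15), counts outside hemoglobin (-1.10) and a filter of 10 counts in each library (-1.48). Nfil3 was also highest in the AngII library before CMG, replicate 1, at 10.7 CPM against 3.82 to 6.42 CPM in the other 7. Tsc22d3 and Sgk1 were lower there than in replicate 2, at 63.4 against 90.9 CPM and 4.79 against 7.60 CPM, while Fkbp5, Dusp1 and Ddit4 were higher. After CMG in AngII rats, 3 of the 6 tested genes of the list had a log2 fold change above 0 and 3 below it. The median log2 fold change of the 6 was -0.32, beside -0.01 over all genes tested. Without overlap between the times, 1 of the 6 was higher and 3 were lower, against 39.9% of all genes in either direction. Both Dusp1 libraries were higher after CMG, at 182 and 119 CPM against 116 and 104 CPM. Those of Klf9, Tsc22d3 (39.7 and 52.7 CPM) and Sgk1 (3.20 and 4.29 CPM) were lower after CMG than both before it. Before CMG all 6 tested glucocorticoid-induced genes were lower in DOCA–HS than in AngII rats by the sign of the fold change. Dusp1 was nearly level, at means of 109.7 and 110.4 CPM. In 2 of the 6 the libraries of the models did not overlap, against 45.4% of all genes. The criterion was passed by 0, against 0.838% of all genes. Klf9 alone had an unadjusted p of at most 0.05 (3.38% of all genes), at -1.36 (adjusted p = 0.992 by edgeR).

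The genes whose log2 CPM followed a clock gene most closely over the 8 libraries were taken from the 5952 genes with a mean of at least 20 counts, as a description and without a test, since the libraries also differ in depth and cell makeup. Per2 ran closest to Csf3r (Pearson r = 0.987), Susd3 (0.985) and Cxcr2 (0.968), and Csf3r and Cxcr2 are on the neutrophil marker list. Of the same list, S100a8 and S100a9 were highest in the DOCA–HS library after CMG, replicate 2, at 167 and 287 CPM, where Per2 was lowest, and in AngII rats both were lower after CMG while Per2 was higher. Without the DOCA–HS library after CMG, replicate 2, the values were 0.976, 0.961 and 0.978. Per1 ran closest to Mllt3 (0.951), Itgb1bp1 (0.950) and Sema3g (0.948). Cry1 ran closest to Nsmce1 (0.933), Strbp (0.922) and Etfa (0.920), and Cry2 to Fam107b (0.994), Dbt (0.989) and Akna (0.986).

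Among the others, Clock ran with Adipor2, Fam120b and Epc1 (0.973 to 0.980) and Arntl with Capn15, Map4 and Trip12 (0.963 to 0.981). Nr1d1 ran with Sec61a1, Smc3 and Sema4d (0.961 to 0.973), Nr1d2 with Cpsf4, Mcrs1 and Dnaja2 (0.920 to 0.951), and Dbp with Klf16, Mrto4 and Yeats4 (0.916 to 0.928). Some values fell without the DOCA–HS library after CMG, replicate 2, to 0.876 for Akna with Cry2, 0.892 for Itgb1bp1 with Per1 and 0.898 for Epc1 with Clock. Others rose, as that of Capn15 with Arntl to 0.991, although its correlation by ranks (Spearman) over the 8 libraries was 0.619. Between clock genes, the highest values were those of Per2 with Cry2 (0.844), Clock with Cry2 (0.825) and Nr1d2 with Dbp (0.793), and the lowest that of Per1 with Nr1d1 (-0.833).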

How the data were processed

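Whole blood RNA was sequenced as single-end reads by the authors, aligned to rn6 with HISAT2 and counted on genes with HTSeq 2.0.3 (intersection non-empty, reverse strand). The deposited values are raw counts per gene and library, without normalization, and 0 columns were left unused. The authors state that hemoglobin annotations were removed before counting, yet Hbb and LOC100134871, taken as a hemoglobin gene, together hold most of the counts. The methods name a directional library kit, and the labels another kit whose name does not say so.

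Each model's libraries were fitted on their own in edgeR 4.0.16 with R 4.3.3 (filterByExpr, TMM, glmQLFit and glmQLFTest), after against before CMG, with Benjamini-Hochberg adjustment over all genes tested, and all 8 libraries gave the difference, the average and the contrasts between the models. CPM values use the TMM factors of the 8 libraries, and log2 CPM a prior count of 2. The criterion of log2 fold change beyond 1.5 and p of at most 0.05 is that of the study. Groups come from the labels, with 2 libraries each. The genes named were all 10 clock genes, list genes past the criterion or with the 2 smallest p-values in a model, and the 3 nearest genes by Pearson correlation. Nfil3 in its values by library and the Cry2 share were chosen after the values were seen. The members and lists were chosen with earlier results of these data known. Depth is given with the values, and 95% Poisson and exact binomial intervals cover counting error only. Libraries of 1 group differed beyond counting noise (chi-square over its degrees of freedom, 12.3 to 76.5 for all genes and 1.98 to 3.85 for the clock genes). The computation was tested on simulated counts. Alternatives were DESeq2 1.42.0, other size factors, a filter of 10 counts in each library or none, the replicate block and each library left out in turn; scaling to counts outside hemoglobin was added after seeing the data. Symbols were matched to the RefSeq table of GRCr8, another build than that of the alignment.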

Additional observations from a re-analysis of the deposited data

Results flagged for a closer look

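Cry2 differed in direction between the models, with both AngII libraries after CMG above and both DOCA–HS libraries after CMG below those before it. The test of the difference gave -1.20 (DOCA–HS minus AngII, SE 0.65, adjusted p = 0.881 by edgeR) and did not pass the criterion. The lower DOCA–HS value after CMG rests on 1 count, and without 1 or the other DOCA–HS library after CMG the change there was -2.55 or -0.11 and the difference -3.30 or -0.87. Cipc had both DOCA–HS libraries after CMG lower, replicate 2 from 2 counts, and the AngII libraries overlapping. It differed by the same test at -1.86 (SE 0.75, adjusted p = 0.881) and passed the criterion. The Cipc call was lost with total counts (-3.01), with DESeq2 (-1.80) and without any of 4 libraries. Its value ran from -2.42 to -1.21 as each library was left out. Gsk3b differed by 1.66 (SE 0.67, adjusted p = 0.881), with both DOCA–HS libraries after CMG higher. This call was lost with total counts (0.36), counts outside hemoglobin (0.84), a filter of 10 counts in each library (1.15) and without any of 5 libraries. In DOCA–HS rats the change of Gsk3b was 1.28, and 0.76 without the library after CMG, replicate 2. No group held enough libraries for a search for single libraries far from the rest.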

How the results depend on the processing

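With 2 libraries a group and 24 counts of the clock genes in the DOCA–HS library after CMG, replicate 2, small changes were not detectable at this depth. At an unadjusted p of at most 0.05 alone, 2 clock genes would be called in AngII rats (Cry1 and Cry2) and 1 in the average (Cry1). In AngII rats both lost this p with total counts (-0.61 and 1.12) and counts outside hemoglobin (-0.59 and 1.14). Cry2 also lost it with DESeq2 size factors, no filter and all 8 libraries in 1 fit, where Cry1 kept it. The average of Cry1 lost it with total counts, counts outside hemoglobin, DESeq2 and no filter. The 1 call between the models before CMG (Per1) became 0 with total counts, 0 with total counts outside hemoglobin (log2 fold change -1.13) and 0 at an adjusted p under 0.05. Scaling to total counts moved the median of all genes to 0.36 in AngII rats, -0.76 in DOCA–HS rats and 0.86 between the models before CMG. A fit with 1 library left out holds 1 library in a group, and the clock genes called in it are not counted here. Without the DOCA–HS library after CMG, replicate 1, the log2 fold change of Cry2 was -2.55 in DOCA–HS rats and -3.30 for the difference. Between the models after CMG it was -2.77 for Cry2 and -2.74 for Per1. The median of all genes in these fits also moved, to -0.37 in DOCA–HS rats, -0.50 for the difference and -0.38 between the models after CMG. The cause was not tested. At least 10 counts in every library left no clock gene to test in the DOCA–HS fit and the fit of 8 libraries.

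No label ties the replicate numbers to rats. Libraries of the same number deviated together in AngII (correlation 0.41) and DOCA–HS rats (0.31), with 2 pairs each. Whether they share a rat or a batch was not tested, and the main fits left them unpaired. With the number as a block, 0 clock genes were called after against before CMG in either model, for the difference and for the average. In AngII rats 3 clock genes then had an unadjusted p of at most 0.05 by edgeR, Cry1 (-1.02, adjusted p = 0.253), Cry2 (0.77, adjusted p = 0.267) and Per1 (-0.71, adjusted p = 0.224). In that fit 165 of all 7201 genes had an adjusted p under 0.05, against 0 in the main fit. The share of all genes with an unadjusted p of at most 0.05 was not computed for it.

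Estimates whose sign turned under another setting were Per2 in DOCA–HS rats with total counts (-0.12), Nr1d1 there with DESeq2 (0.12) and the block (0.018), the difference of Per1 with total counts (-0.21) and of Cry1 with total counts (-0.56) and counts outside hemoglobin (-0.14), the average of Clock with counts outside hemoglobin (0.0015) and of Dbp with total counts (-0.21), no filter (-0.0073) and the block (-0.044), and Cry1 between the models before CMG with DESeq2 (-0.0105). Leaving out single libraries also turned signs, with these log2 ranges. In AngII rats, Arntl ran from -0.0055 to 1.72, Clock from -0.21 to 0.77 and Nr1d2 from -0.45 to 0.77. In DOCA–HS rats, Per1 ran from -1.71 to 0.25, Per2 from -1.71 to 0.84, Cry1 from -0.58 to 0.066, Nr1d1 from -0.48 to 0.82 and Nr1d2 from -0.94 to 0.12. For the difference, Per1 ran from -0.85 to 1.15 and Per2 from -2.30 to 0.42. For the average, Arntl ran from -0.060 to 0.41, Clock from -0.25 to 0.093, Cry2 from -0.022 to 0.37, Dbp from -0.26 to 0.27 and Nr1d2 from -0.51 to 0.25. Between the models before CMG, Clock ran from -0.26 to 0.68, Cry1 from -0.36 to 0.22, Dbp from -0.014 to 0.53, Nr1d2 from -0.20 to 0.81 and Per2 from -0.26 to 0.84, and after CMG, Arntl from -0.27 to 0.0080, Nr1d1 from -0.69 to 0.60, Nr1d2 from -0.88 to 0.40 and Per2 from -1.97 to 0.56.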
